A study of Rattus norvegicus with 4 samples.

Results

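NONCODE is a public catalogue of noncoding RNAs, and many of its rat transcripts carry no gene name. In these tables, 630 of 20524 listed transcripts (3.07%) have a NONCODE identifier and neither an Ensembl gene name, an AceView name nor a RefSeq accession. The rule that picks them uses the annotation columns alone and no measured value. It was chosen with earlier results of these data known. Rows on chromosome X, 573 in number and 14 of them NONCODE rows without a gene name, were left out on both sides. The comparison set is the remaining 19321 rows: 15780 NONCODE rows with an AceView name, 29 with a RefSeq accession, 1118 Ensembl transcripts and 2394 transcripts with identifiers in StringTie's format. Of the 630 unnamed transcripts, 600 have an empty source field, 21 give Ensembl as their source and 9 give a publication. Those 9 bear a serial number such as n12 where others bear a name.

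A long noncoding RNA (lncRNA) is by convention a transcript of over 200 bases without a recognised protein-coding frame. Some act in the nucleus on chromatin or on transcription nearby, some act in the cytoplasm, and for most no function has been assigned. For most of the unnamed entries here, the annotation gives little beyond an identifier, a length and coordinates.

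The 4 libraries come from astrocytes of the cerebral cortex of newborn Wistar rats, grown on coverslips above neurons from which spacers kept them apart. The 2 control libraries are labelled untreated. The other 2 are labelled as ischemic preconditioning: oxygen and glucose deprivation (OGD) for 45 min in glucose-free medium under 1% oxygen, then 24 h in normal medium and air. Each table lists the same transcripts, with a length, a position, a read count and an FPKM value, and the lncRNA counts came to between 2513804 and 2646300 per library. Whether replicates were separate cultures is not stated in the labels, and p-values then measure the spread between these libraries alone, which may be technical. No build is named for the coordinates below, because mm9, a mouse build, is the one in the submitters' processing notes, and the tables number the autosomes up to 20, more than a mouse has. Of 9 astrocyte marker genes, 4 matched a row by name, none of them at 0. The matched rows are lncRNA transcripts listed under a marker's name. Their values are not levels of the marker's mRNA and do not give the share of a cell type. On the CPM scale (reads relative to a library's lncRNA total) the astrocyte rows summed to 53.7 and 32.7 in the control libraries and to 64.6 and 29.4 after OGD. Col1a1, the only fibroblast marker matched, was at 120 and 263 CPM in the control libraries and 124 and 236 CPM after OGD, and the part of such cells in the values below was not tested. Of the other markers, 2 of 6 neuronal genes summed to 86.3 to 108 CPM, and 2 of 6 microglial genes to 5.29 to 35.3 CPM. Of 4 endothelial and mural genes, 2 matched, led by Abcc9. They summed to 32.1 and 23.9 CPM after OGD against 3.84 and 7.22 CPM in the control libraries, and their part was not tested either. In RNA from a whole culture, fewer cells of a type and less RNA per cell cannot be told apart.

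The unnamed transcripts were of middling length. Their median was 716 bases, with a middle range (25th to 75th percentile) of 502.5 to 989.8 bases, against a median of 686 bases and a middle range of 455 to 1047 over all other rows. With rows treated as independent draws, the exact 95% interval of the median was 687 to 736 bases for the unnamed transcripts. For the rest it was 679 to 692 bases. Length belongs to the annotation and has no replicate error, and no test was made of it. The unnamed transcripts were longer than the NONCODE rows with an AceView name, at a median of 644 bases. They were shorter than Ensembl transcripts at 795 bases and StringTie transcripts at 1663.5 bases. Only 42 of them (6.67%) exceeded 2000 bases, against 10.2% of all other rows. The shortest, NONRATT012773.2 on chromosome 17 (9458055 to 9458293), has 239 bases, and had 1 count in every library. The longest, NONRATT032283.1 on chromosome 17 (10739085 to 10772616), has 12402 bases and overlaps a row named Cplx2, the gene of the presynaptic protein complexin 2. It had 2 and 0 reads in the control libraries and 2 and 0 after OGD.

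**Figure D1:**
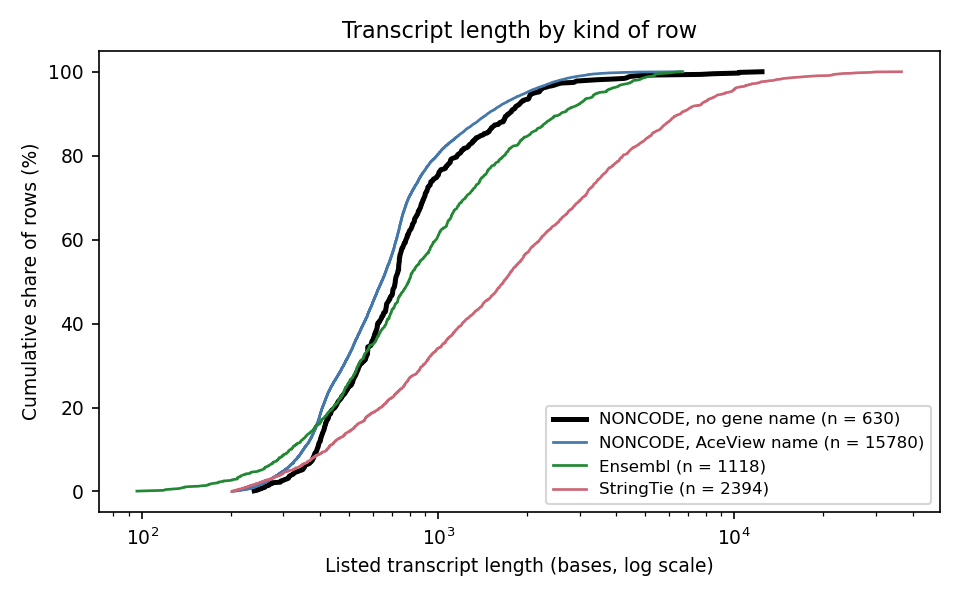
Cumulative share of rows (%) against listed transcript length in bases (log scale) for the unnamed NONCODE transcripts (black, n = 630) and for rows of the other 3 main kinds. At the median the black curve (716 bases) lies between AceView-named NONCODE rows (644 bases) and Ensembl rows (795 bases), left of StringTie rows (1663.5 bases). At the 25th percentile (502.5 bases) it lies to the right of both (435 and 490.25 bases).

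Where the listed length equals the distance from start to end, a transcript has no gap that an intron would leave. This held for 226 of the unnamed transcripts (35.9%), against 44.8% of all other rows and 54.5% of AceView-named NONCODE rows. Ensembl rows (4.92%) and StringTie rows (0%) were seldom or never without a gap. The 404 unnamed transcripts with a gap had a median length of 705 bases, near the 733.5 bases of those without, but spread over a median of 3970.5 bases of chromosome. The widest, NONRATT014594.2, covers chromosome 19 from 27702027 to 28073760 with 1822 transcribed bases, and had 8 and 4 reads in the control libraries and 5 and 1 after OGD. The 39 identifiers with version suffix 1 were longer, at a median of 1265 bases, than the 591 with suffix 2, at 703 bases.

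All 20 autosomes held unnamed transcripts. Chromosome 1 held the most, 89 (14.1%, against 13.02% of all other rows), and chromosome 18 the fewest, 11 (1.75% against 2.87%). Chromosome 10 stood out most from the other rows, with 65 (10.3% against 7.32%), or 4.39 unnamed transcripts per 100 rows. Chromosome 12 also had a larger share, 27 transcripts (4.29% against 3.16%). Chromosome 13 had the lowest density, 12 transcripts or 1.78 per 100 rows, followed by chromosome 18 at 1.94 and chromosome 9 at 2.17. Such positions belong to the annotation and have no replicate error, and no test was made of them. Reads followed another order than rows: chromosome 14, with 18 transcripts, held 21.5% of the reads of unnamed transcripts, chromosome 5 held 21.0% and chromosome 10 only 2.45%.

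**Figure D2:**
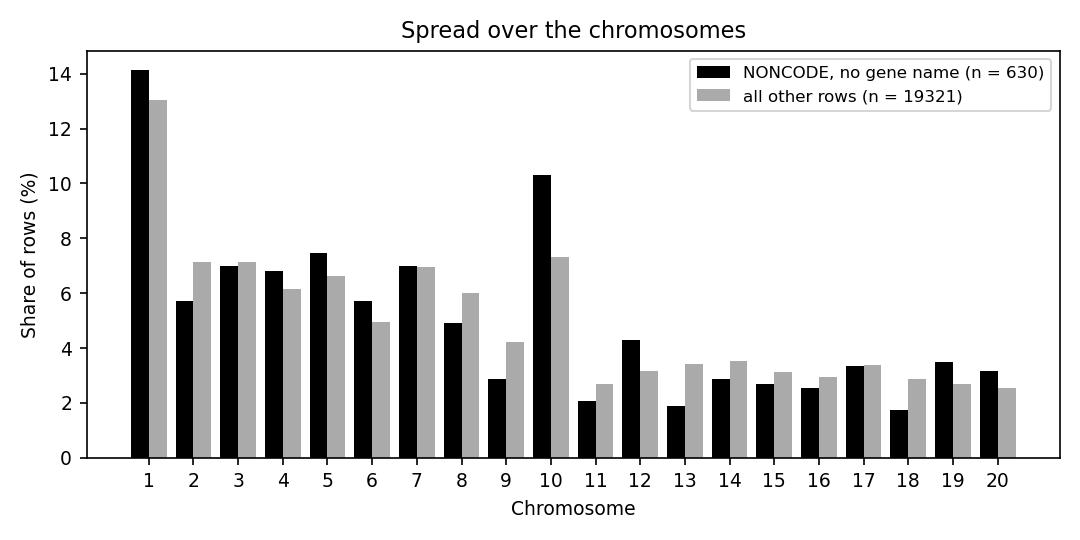
Share of rows (%) on each autosome for the unnamed NONCODE transcripts (black, n = 630) and all other rows outside chromosome X (grey, n = 19321; a few lie on other sequences and are not drawn). Chromosome 10 shows the widest excess of black over grey, 10.3% against 7.32%.

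Position relative to other listed transcripts was compared by start and end only, since the tables give neither strand nor exons. An overlap can therefore lie in an intron or on the opposite strand. Of the unnamed transcripts, 216 (34.3%) shared at least 1 base of span with another row, against 30.6% of all other rows. A row named after a protein-coding gene was overlapped by 105 (16.7%), with names matched to RefSeq of assembly GRCr8. The 414 unnamed transcripts without any overlap lay a median of 11251.5 bases from the nearest row, against 13468 bases for other rows without an overlap. For the other NONCODE rows without an overlap it was 11474 bases, near the value of the unnamed transcripts. With unnamed transcripts up to 100 kb apart joined, 132 of them (20.95%) fell into 58 groups and 498 stood alone. The largest such group had 7 transcripts, on chromosome 6 from 133658937 to 133799940.

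That group lies at the maternally expressed lncRNA gene Meg3, listed as RGD1566401, and beside it. NONRATT033351.1 (133658937 to 133691129) overlaps 15 rows, those of Meg3 among them, and had 121 and 102 reads in the control libraries and 130 and 137 after OGD, a log2 fold change of 0.32 (SE 0.22). The other 6 are the n-numbered transcripts n12 to n16 and n18, between 133776339 and 133799940, each of which overlaps at least 1 of the rest. They summed to 320 and 112 reads in control replicates 1 and 2, and to 293 and 113 in OGD replicates 1 and 2. The sums were high in both libraries numbered 1 and low in both numbered 2, and control and OGD overlapped. The longest, n18 (NONRATT024651.2, 4700 bases), had 168, 67, 173 and 74 counts in the same order. The transcript n16 (NONRATT024653.2) had 43, 10, 50 and 1, and n13 (NONRATT024645.2) the opposite order, 0, 8, 0 and 19. Away from this group, n3876 (NONRATT018400.2, chromosome 3, 92670322 to 92674698) had 109, 31, 143 and 55, again higher in both libraries numbered 1. The last 2 n-numbered transcripts, n1027 and n4526, had 1 and 3 counts in all.

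Most unnamed transcripts had at least 1 read, at a low level. In control, 555 and 544 of the 630 had at least 1 count, and after OGD 555 and 555. The difference of 5.5 transcripts had an exact two-sided permutation p = 1.00 over libraries, where 2 against 2 cannot go below 0.333. At least 1 count in every library was found for 492 (78.1%), against 77.3% of all other rows, and 19 had none in any library. The share of rows detected per library ranged from 86.3% to 88.1% for unnamed transcripts and from 85.8% to 88.3% for all other rows. At 10 counts the shares parted: 299 and 280 unnamed transcripts reached it in control (47.5% and 44.4%) and 301 and 273 after OGD (47.8% and 43.3%), against 49.8% to 53.1% of all other rows. The kinds of row differed in this. At least 10 counts in every library was reached by 35.4% of unnamed transcripts and 38.6% of AceView-named NONCODE rows. It was reached by 70.7% of StringTie rows and 21.1% of Ensembl rows.

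The unnamed transcripts held a smaller share of reads than of rows. They took 1.92% and 2.06% of lncRNA reads in the control libraries and 2.02% and 1.98% after OGD, with exact 95% binomial intervals of 1.90% to 1.94%, 2.04% to 2.07%, 2.01% to 2.04% and 1.97% to 2.00%, which cover counting error only. The group means were 1.99% ± 0.0960 and 2.00% ± 0.0272 (SD, n = 2 per group), and the exact two-sided permutation p was 1.00. The median unnamed transcript had a mean of 8.25 counts per library, against 11.25 for all other rows and 9.5 for AceView-named NONCODE rows. Per kilobase of listed length it stood at 4.78 CPM, below all other rows at 6.73, AceView-named NONCODE rows at 5.97 and StringTie rows at 17.4, and above Ensembl rows at 1.15. Transcripts without a gap were at 4.78 CPM per kilobase and those with one at 4.75. The 216 that overlap another row were at 5.73, and the 414 that do not at 4.06.

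A few transcripts carried most of these reads. The 3 most abundant held 40.2% of all counts of unnamed transcripts and the first 10 held 61.7%. Among all rows, 4 unnamed transcripts ranked in the first 100 and 14 in the first 1000. The leader, NONRATT031966.1 (chromosome 14, 46643222 to 46645093, 1872 bases without a gap), ranked number 18 of all rows. It had 7132 and 11107 reads in the control libraries and 7875 and 8957 after OGD, which is 0.274%, 0.422%, 0.298% and 0.356% of lncRNA counts. Both OGD values lay between the controls. Per kilobase it was also the highest, with 1858 ± 561 CPM for the control libraries against 1747 ± 222 CPM for the OGD libraries (SD, n = 2). It lies within the span of a StringTie transcript that had 2742 and 2651 reads in the control libraries and 3262 and 2385 after OGD.

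NONRATT033929.1 (chromosome 1, 215744404 to 215747080, 2325 bases) followed with 6267 and 5289 reads in the control libraries and 8757 and 4941 after OGD. The OGD libraries were its highest and its lowest. It overlaps a row with 12 to 31 counts, named snoflu in AceView. NONRATT022294.2 (chromosome 5, 74956511 to 74985789, 4463 bases) had 4373 and 6924 reads in the control libraries and 5262 and 6593 after OGD. It overlaps a row named Akap2, an earlier name at Pakap, a gene that encodes an anchoring protein of protein kinase A, and that row had at most 3 counts per library. In these 3 leaders control and OGD overlapped, and the log2 fold changes were -0.07 (SE 0.31), 0.29 (SE 0.27) and 0.12 (SE 0.34).

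NONRATT023866.2 (chromosome 5, 165991076 to 165994517, 3442 bases without a gap) had the smallest SE of the 8 most abundant. It had 2821 and 2851 reads in the control libraries and 2426 and 2325 after OGD, and the groups did not overlap. The log2 fold change was -0.20 (SE 0.17, unadjusted p = 0.285 in edgeR's quasi-likelihood test). NONRATT009788.2 on chromosome 14 (17969430 to 17971324) stood 337817 bases from the nearest row. It had 1002 and 2065 reads in the control libraries and 1295 and 2042 after OGD, higher in both libraries numbered 2. NONRATT010678.2 on chromosome 15 (104227437 to 104229705) had 1160 and 1262 reads in the control libraries and 1098 and 1370 after OGD, again with overlap.

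The remaining pair of the 8 share a stretch of chromosome 3. NONRATT018484.2 (chromosome 3, 111406336 to 111410585, 4250 bases) lies wholly within the span of NONRATT034050.1 (111397051 to 111410587, 7706 bases). The inner transcript had 2546 and 2126 reads in the control libraries and 2469 and 45 after OGD. The outer had 1902 and 1881 reads in the control libraries and 2032 and 3956 after OGD. OGD replicate 2 alone was low in the first and high in the second, and the sums of both were 4448 and 4007 in the control libraries and 4501 and 4001 after OGD. The sources used here do not give how reads were shared out between overlapping transcripts. The log2 fold changes of -0.90 (SE 1.49) and 0.74 (SE 0.39) rest on that library: without OGD replicate 2 they were 0.07 and 0.09.

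**Figure D3:**
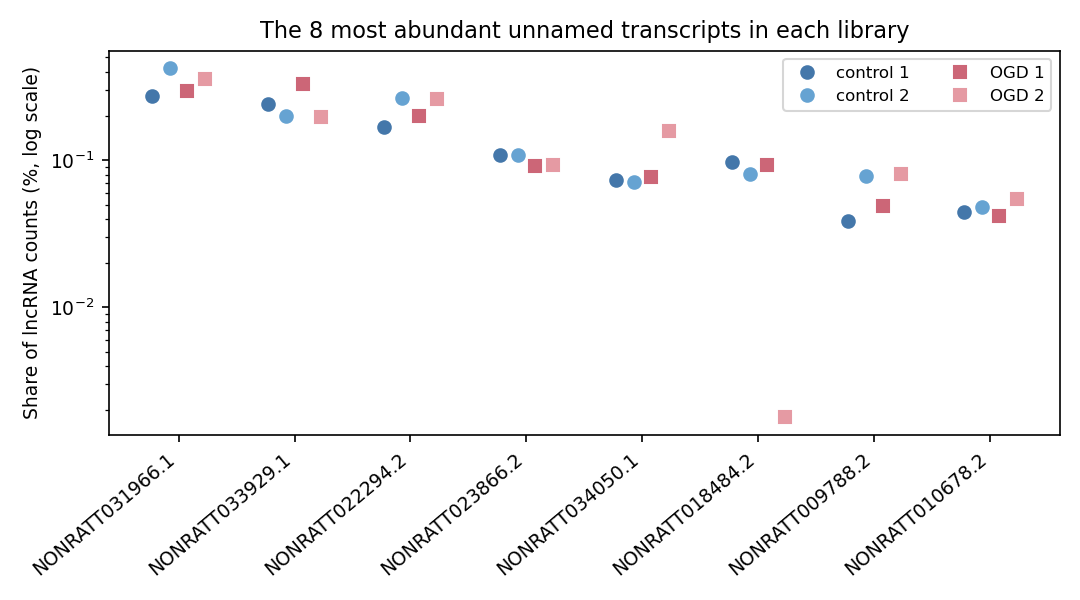
Share of lncRNA counts (%, log scale) of the 8 most abundant unnamed transcripts, with 1 point per library (circles control, squares OGD). Control and OGD points mix for the 3 leaders, and NONRATT018484.2 has 1 point far below the others, OGD replicate 2 at 0.00179%.

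The change after OGD was tested on the whole table by edgeR's quasi-likelihood test, with Benjamini-Hochberg adjustment over 9581 loci. A locus here is a transcript, or the sum of transcripts with the same gene name or gene identifier on 1 chromosome, and every unnamed transcript is a locus of its own. Of the 630, 303 (48.1%) had enough counts to be tested, 308 had too few and 19 had none. The test called 0 of the 303, against a background of 0.0835% of all tested loci (8 of 9581: 0.0417% higher and 0.0417% lower). The smallest adjusted p was 0.0608. At an unadjusted p under 0.05 there were 6, or 1.98%, against a background of 2.33%: 2 higher after OGD (background 1.23%) and 4 lower (background 1.10%). DESeq2 gave 263 of them an adjusted p and called 3, all lower after OGD, against a background of 0.452%.

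The tested transcripts were centred near 0. Their median log2 fold change was 0.02, with a middle range of -0.25 to 0.25, beside -0.0018 and -0.21 to 0.22 over all tested loci. Above 0 were 159 and below 0 were 144. The groups did not overlap for 88 of the 303, or 29.0%, against a background of 28.0%: 44 were higher after OGD and 44 lower, against 14.0% each way. A fold change of at least 2 in either direction was estimated for 19, or 6.27%, against a background of 4.43%: 8 higher (background 2.32%) and 11 lower (background 2.11%). These counts describe transcripts that passed the filter on low counts, which 1 group can carry. Replicates differed by a median of 0.45 between controls and 0.39 between OGD libraries on the log2(CPM + 1) scale, against 0.37 and 0.34 over all tested loci. The median absolute log2 fold change was 0.25 for unnamed transcripts and 0.22 for all tested loci. That value contrasts groups of 2 libraries in the fit, so its size cannot be set against a difference between 2 single libraries. Across the 303 transcripts, Pearson r was 0.881 between the controls, 0.856 between the OGD libraries, and 0.844 to 0.885 between a control and an OGD library. The transcripts share these 4 libraries and are not independent.

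**Figure D4:**
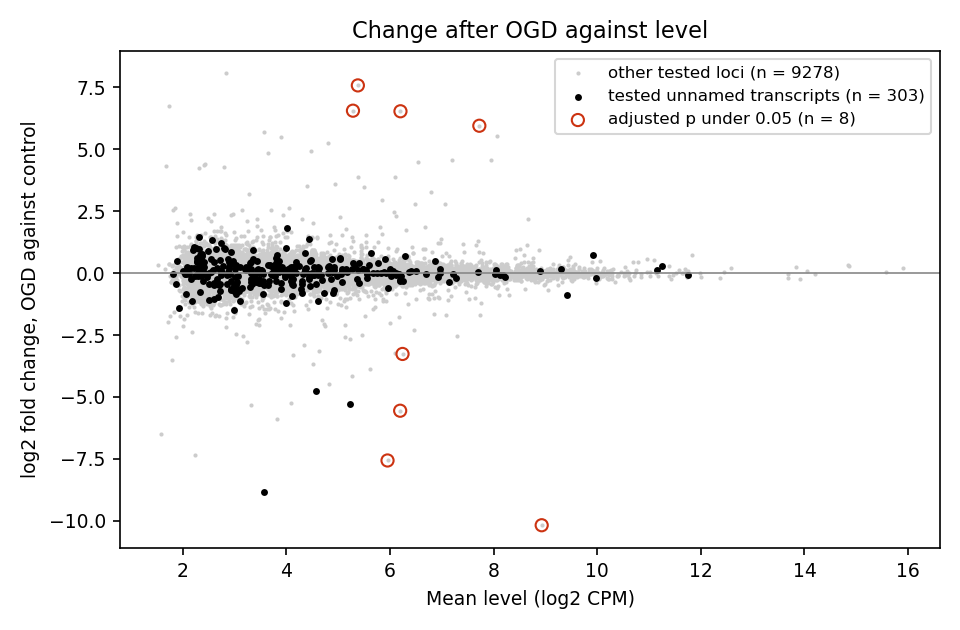
Fitted log2 fold change, OGD against control, against mean level (log2 CPM) for the 303 tested unnamed transcripts (black) and the other 9278 tested loci (grey). Red rings mark the 8 loci with an adjusted p under 0.05, none of which is black. The 3 lowest black points are NONRATT008708.2, NONRATT024782.2 and NONRATT025358.2.

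NONRATT025358.2 came nearest to the threshold. It lies on chromosome 6 (135902968 to 135903646, 679 bases without a gap), 3550 bases from a row named Tnfaip2, a gene induced by tumour necrosis factor. It had 102 and 129 reads in the control libraries and 4 and 4 after OGD, so both OGD libraries were far below both controls. Normalised levels were 44.3 ± 10.1 CPM and 1.59 ± 0.114 CPM (SD, n = 2). With both libraries of a group added up and depth allowed for, OGD was 27.8-fold lower, with an exact 95% counting interval of 13.9 to 65.1. Such an interval covers counting error only and leaves out the spread between libraries. The log2 fold change was -4.76 (SE 0.38, adjusted p = 0.0608 in edgeR, and 2.5e-08 in DESeq2). The Tnfaip2 row had 1 and 2 reads in the control libraries and 3 and 2 after OGD.

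NONRATT008708.2 lies on chromosome 13 (50555454 to 50564219, 3869 bases). It had 51 and 64 reads in the control libraries and 0 in both OGD libraries. This is at least 36.8-fold lower if the 2 OGD libraries together are set at 3 counts, a floor assumed in place of 0. The value leaves out the counting error of the controls. For this transcript the adjusted p was 0.200 in edgeR and 1.1e-04 in DESeq2. It overlaps a row of Plekha6, a gene of a pleckstrin homology domain protein, with 7 and 5 reads in the control libraries and 9 and 6 after OGD. It also overlaps the AceView row jykee, with 62 and 34 reads in the control libraries and 53 and 41 after OGD, and neither neighbour was at 0 in any library.

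NONRATT024782.2 lies on chromosome 6 (6696340 to 6709774, 766 bases), inside the span of a row named Cox7a2l, the gene of a protein that helps respiratory complexes join into larger assemblies. It had 282 and 101 reads in the control libraries and 3 and 6 after OGD. This is 71.4 ± 44.1 and 1.82 ± 0.970 CPM (SD, n = 2). Added up in the same way, OGD was 40.9-fold lower, with an exact 95% counting interval of 21.3 to 90.1. The interval again leaves out the spread between libraries, here 282 against 101 reads in the controls. In edgeR the adjusted p was 0.251, and in DESeq2 it was 4.9e-09. The Cox7a2l row that encloses it had 417 and 360 reads in the control libraries and 1551 and 1786 after OGD, the opposite direction. The sum of both rows was 699 and 461 reads in the control libraries and 1554 and 1792 after OGD.

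The other 3 with an unadjusted p under 0.05 had an adjusted p of 1.00 in edgeR. NONRATT001251.2 on chromosome 1 (199655857 to 199660845, 2061 bases) had 69 and 58 reads in the control libraries and 42 and 29 after OGD, a log2 fold change of -0.79 (SE 0.29). The AceView row smargley, 147 bases away, had 55 and 53 reads in the control libraries and 29 and 37 after OGD. NONRATT034053.1 on chromosome 3 (120372665 to 120373523, 445 bases) had 10 and 25 reads in the control libraries and 62 and 60 after OGD, a log2 fold change of 1.83 (SE 0.52). NONRATT013294.2 on chromosome 18 (25216433 to 25221702, 2105 bases) had 75 and 109 reads in the control libraries and 180 and 136 after OGD, a log2 fold change of 0.82 (SE 0.31). In each of these 3 the groups did not overlap.

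**Figure D5:**
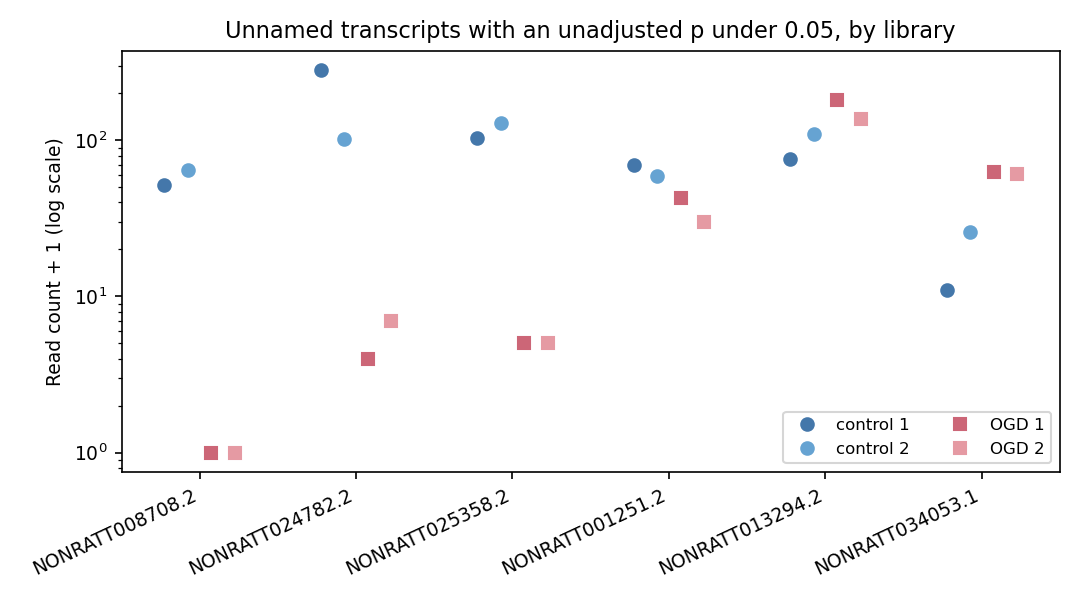
Read count plus 1 (log scale) of the 6 unnamed transcripts with an unadjusted p under 0.05, with 1 point per library (circles control, squares OGD). In the 3 on the left the OGD points lie at 0 to 6 counts and the controls at 51 to 282. In the 3 on the right the groups are closer and do not overlap.

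Some unnamed transcripts had reads in 1 group only. Among the 630, 29 had 0 counts in both controls and some after OGD (4.60%, against 3.82% of all other rows), and 22 had the reverse (3.49% against 3.74%). Nearly all of these were at a few counts: of the 29, 2 reached a sum of 10 counts, and of the 22, 3 did. In each of the 2 that did so among the 29, the reads came from a single library. NONRATT020147.2 on chromosome 4 (8256681 to 8265244) had 0 and 0 reads in the control libraries and 304 and 0 after OGD. NONRATT025583.2 on chromosome 7 (12490976 to 12493364) had 0 and 0 in the control libraries and 0 and 50 after OGD. NONRATT034063.1 on chromosome 4 (161679674 to 161685060) had 0 and 34 in the control libraries and 0 in both OGD libraries. In n15 (NONRATT024657.2) the controls had 4 and 11 and the OGD libraries 0. At lower counts, NONRATT022460.2 and NONRATT027047.2 had 7 counts each, all in OGD replicate 2, and NONRATT003056.2 had 5, all in control replicate 2. Only NONRATT008708.2, above, was at 0 in 1 group with at least 51 counts in each library of the other.

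In some transcripts a single library stood apart from the rest. Of the 189 unnamed transcripts with at least 100 counts in all, 7 (3.70%) had 1 library at least 10-fold from the nearest other, against 3.67% of 6903 other rows. This rule was chosen after the values were seen. NONRATT003304.2 on chromosome 1 (211196220 to 211205710) had 96 and 76 reads in the control libraries and 0 and 72 after OGD. It overlaps a row named Mapk1ip1, with 29 and 9 reads in the control libraries and 77 and 8 after OGD. It also overlaps the AceView rows glawglor and glarglor, with 20 to 52 and 27 to 45 counts per library. NONRATT026211.2 on chromosome 7 (128685118 to 128728171) had 1 and 58 in the control libraries and 89 and 64 after OGD. The AceView row beeta, 23 bases away, had 3 and 35 in the control libraries and 31 and 24 after OGD. NONRATT022424.2 on chromosome 5 (119981117 to 119982723) had 4 and 3 in the control libraries and 133 and 4 after OGD. NONRATT007879.2 on chromosome 12 had 2 and 2 in the control libraries and 2 and 98 after OGD, and NONRATT016705.2 on chromosome 2 had 3 and 8 in the control libraries and 2 and 98 after OGD. The last 2 of the 7 are NONRATT020147.2 and NONRATT018484.2, above. The library apart was OGD replicate 2 in 3 of them, OGD replicate 1 in 3 and control replicate 1 in 1.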

How the data were processed

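The authors deposited whole-number read counts and FPKM values per transcript for each of 4 libraries, per the file headers. Per the submitters' processing notes, the tools were HISAT2 and StringTie; for the counting program and its strand setting, the sources used here give nothing. From the deposited FPKM values each library's total was computed (24934040 to 26371055), of which lncRNA counts were 9.98% to 10.6%; they had no other use. Counts were summed to 17290 loci by gene name or identifier and tested with edgeR 4.0.16 (filterByExpr, TMM, quasi-likelihood F test on group, threshold 0.05) in R 4.3.3. SE was taken as |log2 fold change| over √F. CPM of tested transcripts are TMM-normalised. CPM per kilobase, also of tested transcripts, and other CPM are of all lncRNA counts. The fit was tested on simulated data, drawn from the fitted means and the trend of dispersion. There it called 4% of 50 loci changed 2-fold, 64% of 50 changed 4-fold and 100% of 50 changed 16-fold. The simulated loci had no dispersion of their own and no difference between replicate numbers, so these shares do not carry over to the data. In the data, NONRATT025358.2 at 27.8-fold and NONRATT024782.2 at 40.9-fold were not called.

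Transcripts named are those past the threshold; per direction up to 8 with the largest change at an unadjusted p under 0.05, at least 20 mean counts in 1 group and no overlap; the 8 most abundant, the 4 highest per kilobase, the longest and shortest, and up to 4 per direction at 0 in 1 group. Outside this rule, the widest transcript, those of the largest group, the other n-numbered ones and those with a single library apart were named after their values were seen. Members, lists and this rule were chosen with earlier results of these data known. Alternatives were DESeq2 1.42.0, other scaling, filters and units, a replicate block and each library left out. No sequences are shown, since a genome for these coordinates was not used here.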

Additional observations from a re-analysis of the deposited data

How the results depend on the processing

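The count of 0 unnamed transcripts past the adjusted threshold in edgeR (6 at an unadjusted p under 0.05) became 3 with DESeq2 (1.14% against 0.452% of all loci), 1 with the replicate block (0.330% against 0.219%) and 4 where a 2-fold change and an unadjusted p under 0.05 sufficed (1.32% against 1.66%). It was 0 with DESeq2 size factors and with at least 10 counts in 2 libraries (8 loci called in all by each), with transcripts as deposited (1) and without OGD replicate 2 (12). Without a filter, or without any of the other 3 libraries, no locus at all was called, so 0 unnamed transcripts there says nothing of stability. The 1 called with the replicate block was NONRATT025358.2 (adjusted p = 0.0247 in edgeR); deviations of same-numbered libraries correlated at 0.300 across loci, and the meaning of the number is not in the labels. The count at an unadjusted p under 0.05 was 11 with DESeq2 (1.80% against 1.13% of all loci), 11 without a filter (1.80% against 2.41%), 16 with the replicate block (5.28% against 4.60%) and 10 to 17 with a library left out (2.95% to 5.03% against 2.26% to 3.45%), where the lone library is assumed to vary like the other group. The median log2 fold change lay between -0.02 and 0.07. The OGD minus control share of counts, 0.0148 percentage points, lay between -0.0531 and 0.0827 with a library left out. The difference in transcripts detected was -2.5 at 10 counts and 0 to 11 with a library left out. Per kilobase of genomic span in place of length, the median fell from 4.78 to 1.48 CPM, since spans include gaps. Of 140 values of 14 named transcripts, 126 held their sign and their side of the threshold, 4 came to pass it, and 10 reversed, all 10 with a library left out. NONRATT009788.2 lay between -0.29 and 0.88, NONRATT010678.2 between -0.16 and 0.32, NONRATT018484.2 between -5.54 and 0.069, NONRATT022294.2 between -0.22 and 0.58, NONRATT031966.1 between -0.40 and 0.38 and NONRATT033929.1 between -0.077 and 0.59. For all of these, the cause was not tested. Leaving out libraries for the abundance per kilobase was chosen after seeing the data and gave 4.48 to 4.76 CPM. At this depth, 327 of 630 transcripts had too few counts for the test.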
